A study of Mus musculus with 2 samples.

Results

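The miR-181 family of the mouse consists of 6 hairpin genes, Mir181a-1, Mir181a-2, Mir181b-1, Mir181b-2, Mir181c and Mir181d, out of 2202 miRNA hairpin transcripts in GENCODE release M21. Its reads were all sequences of at least 16 nt that lay exactly, on the sense strand, inside one of these 6 hairpins. The reads came from 2 small RNA libraries of C57BL/6 mouse testis at embryonic day 16.5 (E16.5), 1 from wild-type (WT) fetuses and 1 from fetuses lacking Hsp90α (KO), the cytosolic chaperone encoded by Hsp90aa1. Each library was made from total RNA of 20 pooled whole testes, germ cells and somatic cells together, and the KO strain still has the gene of the other cytosolic isoform, HSP90β. The small RNA files hold no mRNA level, so the loss of Hsp90aa1 could not be checked in them. There was 1 library per genotype and therefore no replicate error: the 95% intervals given below cover the sampling of reads only, and no p-value was computed.

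A miRNA is cut from its hairpin as a duplex of a 5p and a 3p strand, and 1 strand, the guide, is retained by an Argonaute protein while the other, the passenger, is mostly degraded. Bases 2 to 8 of the guide, the seed, pair with target mRNAs. The miR-181 guides are the 5p strands, and they are known from lymphocyte development, where they tune the sensitivity of the T cell receptor, and from many other tissues. HSP90 is known to take part in loading small RNA duplexes into Argonaute proteins in plants and insects. In cultured human cells, by work that the study cites, inhibiting HSP90 left miRNA expression unaffected. The study called the miRNA reads of its WT and KO libraries comparable and used them as the reference for its other small RNAs.

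The mature sequences are shown first because the assignment of every read rests on them. They are RefSeq sequences of the GRCm38.p6 build, 5′ to 3′, with the seed in capitals. The 4 guides were as follows.
miR-181a-5p: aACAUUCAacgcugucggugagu
miR-181b-5p: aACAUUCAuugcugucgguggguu
miR-181c-5p: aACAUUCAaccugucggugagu
miR-181d-5p: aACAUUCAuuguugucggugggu
All 4 guides share the seed ACAUUCA, which was found in 0 of the other mature names among 1679 in the RefSeq table. Counted from 1 at the 5′ end, miR-181a-5p and miR-181b-5p differ by A9U, C10U and A21G, and miR-181b-5p and miR-181d-5p differ over their first 23 bases only by C12U. The guide miR-181a-5p is encoded identically by Mir181a-1 (chr1:137966468-137966490) and Mir181a-2 (chr2:38852741-38852763), and miR-181b-5p by Mir181b-1 (chr1:137966650-137966673) and Mir181b-2 (chr2:38853845-38853868). A guide read can thus not be given to one of these paralogs, and the 3p strands were used to tell them apart.

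The 6 passengers are all distinct and fall into 4 seeds.
miR-181a-1-3p: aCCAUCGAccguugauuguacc
miR-181c-3p: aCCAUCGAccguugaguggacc
miR-181a-2-3p: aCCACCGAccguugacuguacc
miR-181b-1-3p: cUCACUGAacaaugaaugcaa
miR-181b-2-3p: cUCACUGAucaaugaaugcaaa
miR-181d-3p: cCCACCGGgggaugaauguca
The seed CCAUCGA is shared by miR-181a-1-3p and miR-181c-3p, and UCACUGA by both miR-181b passengers. The passengers of the miR-181a paralogs differ by U5C and U16C, so that the first of these changes lies in the seed, and those of the miR-181b paralogs differ by A9U.

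The 6 hairpins form 3 genomic pairs. In GRCm38 coordinates, Mir181a-1 (chr1:137966455-137966541) and Mir181b-1 (chr1:137966639-137966718) lie on the plus strand with 97 bases between them, in introns of the noncoding genes Gm4258 (same strand) and Gm26936 (opposite strand) and over an exon of the lincRNA A430106G13Rik. Mir181a-2 (chr2:38852735-38852810) and Mir181b-2 (chr2:38853830-38853918) lie 1019 bases apart in an intron of Nr6a1, which encodes germ cell nuclear factor and is transcribed from the opposite strand, and Mir181b-2 also overlaps an exon of Gm44144 on that strand. Mir181d (chr8:84178716-84178787) and Mir181c (chr8:84178873-84178961) lie 85 bases apart on the minus strand, in an intron of Nanos3 on the same strand. Nanos3 encodes an RNA-binding protein that primordial germ cells need.

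The WT library held 6409305 reads and the KO library 5589326, of which 39.4% and 45.8% matched a miRNA hairpin. Levels are given as reads per 1000000 of these hairpin reads (RPM), of which there were 2523084 in WT and 2561491 in KO, and on this scale 3 reads stand for 1.19 in WT and 1.17 in KO. Mir10b alone took 55.9% and 55.2% of the hairpin reads. The WT library held 87765 miR-181 reads, or 34784.8 RPM, which is 3.48% of its hairpin reads (95% Wilson interval 3.46 to 3.50). The KO library held 86738, or 33862.3 RPM, which is 3.39% (3.36 to 3.41). Grouped by bases 2 to 8 of the read, reads with the miR-181 seed ranked 5th of 2267 groups in WT and 4th in KO. Mir10b and Mir127 had more reads than the whole family in both libraries, and Mir143 had more in WT only.

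The KO/WT ratio of the family was 0.973 (95% Clopper-Pearson interval 0.964 to 0.983), or -0.04 on the log2 scale, and it lay above 1, at 1.13, when the libraries were scaled instead to all their reads or to the median ratio of all hairpins. These scalings raised every ratio by 0.22 and 0.21 on the log2 scale, respectively. A difference of this size has no replicate library to be set against, and in whole testis a change in the number of cells of a type cannot be told apart from a change in RNA per cell. Of the distinct miR-181 sequences, 109 in WT and 112 in KO, 87 occurred in both libraries and held 99.96% of the family's reads in each. The same share over all hairpin sequences was not computed, so these counts show nothing particular to the family. In length, 98.3% of the family's reads in WT and 98.4% in KO were of 20 to 24 nt, reads of 26 nt or more numbered 13 and 15, and 0 reads were antisense to a hairpin or lay between its arms.

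The guides made up nearly all of the family. miR-181a-5p was read 65731 times in WT and 64761 times in KO, or 26051.8 and 25282.5 RPM. It held 74.9% of the family in WT and 74.7% in KO. miR-181c-5p followed with 11162 and 11345 reads, or 4424 and 4429 RPM. miR-181b-5p came next at 2138 and 2015 RPM (5395 and 5161 reads). The least abundant guide was miR-181d-5p with 2841 and 2963 reads, or 1126 and 1157 RPM. The order a, c, b, d was the same in both libraries, and no exact Poisson interval of one guide's level overlapped that of another. With its 2 genes, miR-181a-5p was 5.89 times as abundant as miR-181c-5p in WT and 5.71 times in KO.

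The KO/WT ratio of miR-181a-5p was 0.970 (0.960 to 0.981) and that of miR-181b-5p 0.942 (0.907 to 0.979), both intervals below 1 on the hairpin scale and both above 1 on the scale of all reads (1.13 and 1.10). The ratios of the chromosome 8 guides were 1.001 (0.975 to 1.03) for miR-181c-5p and 1.03 (0.975 to 1.08) for miR-181d-5p, with intervals that held 1 on the hairpin scale and lay above it on the scale of all reads (1.17 and 1.196). Of the 7 arms that had at least 100 reads, summed over the libraries, 0 had a ratio past 1.5-fold in either direction, against 40.0% of the 458 annotated hairpins with at least 100 reads and 2.63% of the 266 hairpins among them that carry a Mir name. The interval lay below 1 for 2 of the 7 arms and above 1 for 0, on the hairpin scale, against 52.4% and 9.39% of the 458 hairpins and 21.4% and 16.2% of the 266. The 2 backgrounds differ because the other 192 hairpins, mostly of Gm names and sharing reads among copies, had a median ratio of 0.341. The median log2 ratio of the 7 arms was -0.04, with ratios from 0.872 to 1.03. Over the 266 Mir-named hairpins the median log2 ratio was -0.01 (SD 0.30), and 43.6% of them had a lower ratio than the family.

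**Figure D1:**
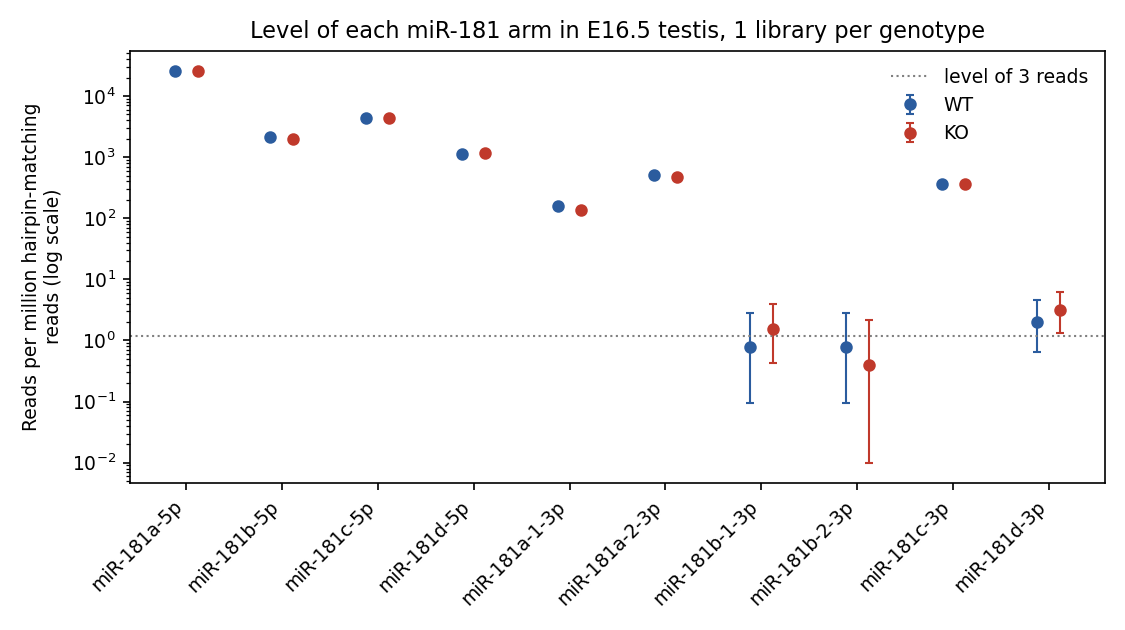
Level of each of the 10 miR-181 arms in WT (blue) and KO (red), in reads per 1000000 hairpin-matching reads (RPM) on a log axis, with 1 library per genotype and bars for the exact 95% Poisson interval. The 4 guides at the left lie between 1126 and 26051.8 RPM, 3 passengers between 138.2 and 515.2, and the passengers of both miR-181b genes and of miR-181d lie near the dotted level of 3 reads.

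**Figure D2:**
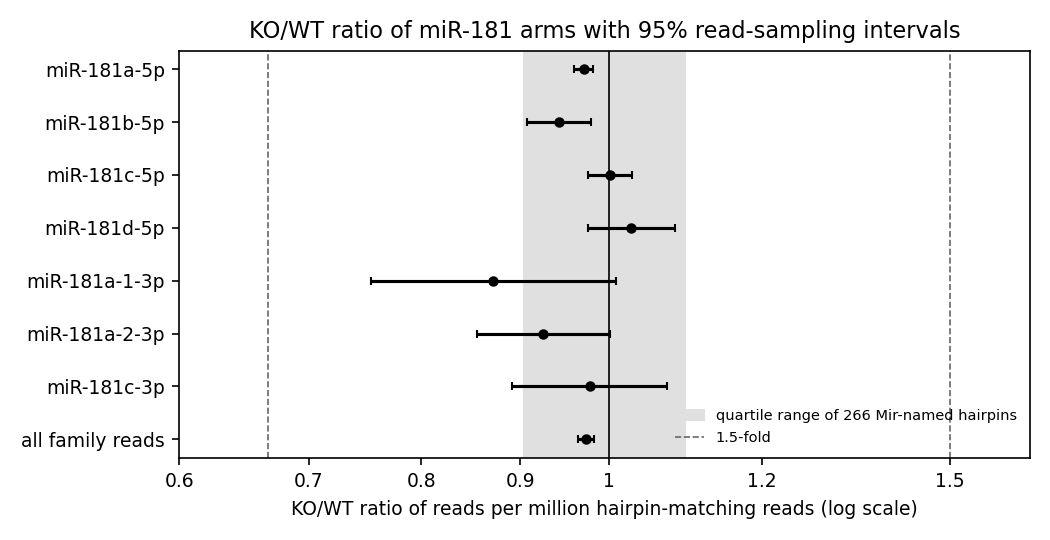
KO/WT ratio on a log axis for the 7 miR-181 arms with at least 100 reads and for the whole family, with 95% intervals that cover read sampling only, beside the range between the quartiles of Mir-named hairpins (0.904 to 1.09, grey) and the 1.5-fold lines (dashed). The ratios run from 0.872 to 1.03 on this scale, and scaling to all reads would multiply each of them by the same factor and put the guides above 1.

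Ratios between members do not depend on the scaling. miR-181a-5p fell against miR-181c-5p by a quotient of 0.969 (exact conditional interval 0.942 to 0.997), from 5.89 to 5.71 reads per read. The quotient of miR-181a-5p against miR-181b-5p was 1.03 (0.990 to 1.07) and that of miR-181c-5p against miR-181d-5p, its neighbour in the Nanos3 intron, 0.975 (0.919 to 1.03), with 3.93 and 3.83 reads of miR-181c-5p per read of miR-181d-5p. Of the 11 quotients computed within the family, this first one was the only interval that left out 1. An interval that holds 1 does not show that the members moved alike.

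miR-181b-5p and miR-181d-5p differ by a single base, so misread bases of one could count as the other. Among reads of 22 nt, miR-181b-5p had 2341 in WT and 2171 in KO and miR-181d-5p had 626 and 578. The other 62 single-base variants of miR-181b-5p at positions 1 to 21 had at most 13 reads in WT and 11 in KO, which is 0.555% and 0.507% of its own reads, and their median was 0. The miR-181d-5p reads thus exceeded the most frequent other variant of miR-181b-5p in both libraries.

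The passengers were scarce and unequal between the hairpins. miR-181a-2-3p was the most abundant with 1300 reads in WT and 1221 in KO, or 515.2 and 476.7 RPM. miR-181c-3p had 927 and 920 reads, or 367.4 and 359.2 RPM, and miR-181a-1-3p 400 and 354, or 158.5 and 138.2 RPM. The other 3 were near the limit of detection, with 2 and 4 reads of miR-181b-1-3p, 2 and 1 reads of miR-181b-2-3p, and 5 and 8 reads of miR-181d-3p. The intervals of the first 3 levels did not overlap in either library, whereas the last 3 could not be ordered.

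The KO/WT ratio was 0.872 (0.753 to 1.01) for miR-181a-1-3p, 0.925 (0.855 to 1.001) for miR-181a-2-3p and 0.978 (0.891 to 1.07) for miR-181c-3p. All 3 intervals held 1 on the hairpin scale, and depth limits them: that of miR-181a-1-3p, with the fewest reads, leaves room for a ratio as low as 0.753. With reads of 20 to 24 nt only, the interval of miR-181a-2-3p lay just below 1 (0.922, 0.851 to 0.999), as it did with sequences of at least 2 reads and without Mir10b in the total. On the scale of all reads the ratios turned to 1.01, 1.08 and 1.14, respectively. Summed, the 6 passengers had 2636 reads in WT against 2508 in KO. Their ratio of 0.937 (0.887 to 0.990) on the hairpin scale lay above 1 on the scale of all reads, as did that of the 4 guides, 0.975 (0.965 to 0.984).

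The passengers served to weigh the loci of miR-181a. In WT there were 3.25 reads of miR-181a-2-3p for each of miR-181a-1-3p, and in KO 3.45, so that the chromosome 1 copy gave 23.5% (Wilson interval 21.6 to 25.6) and 22.5% (20.5 to 24.6) of the miR-181a passenger reads. The quotient was 1.06 (0.899 to 1.25). Set against the 3p reads of the chromosome 1 pair, those of the chromosome 8 pair had a quotient of 1.12 (0.941 to 1.33), and set against those of the chromosome 2 pair, 1.06 (0.939 to 1.198). The 3p arms of the 3 pairs had KO/WT ratios of 0.877 (0.759 to 1.01) on chromosome 1, 0.924 (0.854 to 1.0003) on chromosome 2 and 0.981 (0.895 to 1.08) on chromosome 8, on the hairpin scale. A shift in use between the loci was therefore not detectable at this depth, while the intervals leave room for a shift of up to 1.33-fold. Passenger reads stand for their locus only so far as each hairpin keeps the same share of its passenger, which these libraries do not measure for the miR-181a paralogs separately.

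Reads specific to 1 miR-181b paralog were too few, or too ambiguous, for the same comparison. Beyond the mature end the sequences of the hairpins diverge, and 6 reads in WT and 0 in KO extended into the sequence of Mir181b-1, against 200 and 194 into that of Mir181b-2. Most of the latter, 185 and 183 reads, were a single 25-nt form that ends in an additional U.
miR-181b-5p, 25-nt form: aacattcattgctgtcggtgggttt
The last U of this form is encoded by Mir181b-2, but a U added to a 24-nt read of Mir181b-1 would give the same sequence. For miR-181d-5p, whose hairpin does not encode it, the corresponding form with an additional U had 83 reads in WT and 82 in KO, or 11.5 and 11.3 per 100 reads of the form without it. For miR-181b-5p there were 18.5 and 19.2. The paralogs of miR-181b thus could not be weighed here. For miR-181a, 0 guide reads told the paralogs apart.

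**Figure D3:**
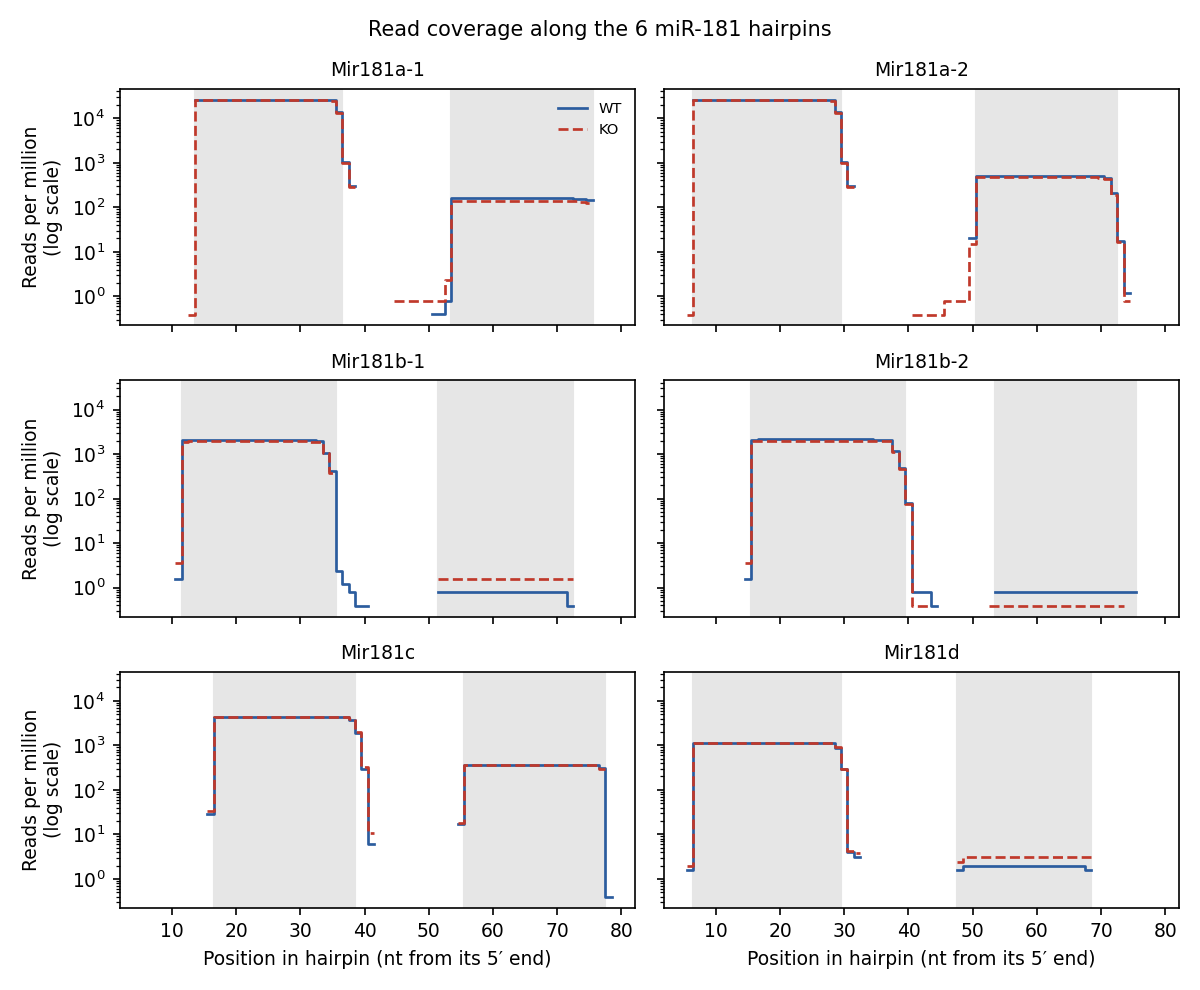
Read coverage along the 6 miR-181 hairpins, in reads per 1000000 hairpin-matching reads (RPM) on a log axis against the position in the hairpin in nt from its 5′ end, for WT (blue, solid) and KO (red, dashed), with the annotated 5p and 3p arms in grey. Reads shared by identical paralogs are drawn in both, and the lines of the libraries coincide within the drawing where coverage exceeds 1000 RPM, while the 3p arms of both miR-181b genes and Mir181d rest on at most 8 reads.

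The share of the passenger differed more between members than between genotypes. miR-181c kept the most, with 3p reads making up 7.67% (7.21 to 8.16) of its reads in WT and 7.501% (7.05 to 7.98) in KO. The share was 2.52% (2.41 to 2.64) and 2.37% (2.26 to 2.49) for miR-181a. It was 0.176% and 0.269% for miR-181d (5 of 2846 and 8 of 2971 reads), and 0.0741% and 0.0968% for miR-181b. miR-181c thus had 3.21 times as many passenger reads per guide read as miR-181a in WT (2.95 to 3.49) and 3.33 times in KO (3.06 to 3.63). Against miR-181d, encoded 85 bases away, the excess was 47.2-fold (20.1 to 146) in WT and 30.03-fold (15.2 to 69.9) in KO. Between the genotypes the intervals held 1: the guide-to-passenger ratio of miR-181a was 38.7 in WT and 41.1 in KO, with a quotient of 1.06 (0.992 to 1.14), and that of miR-181c 12.04 and 12.33, with a quotient of 1.02 (0.930 to 1.13). The quotients for miR-181b (0.152 to 3.56) and miR-181d (0.168 to 2.26) had wide intervals because of the few passenger reads.

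The 5′ end of a guide sets its seed, and it was precise in both libraries. The annotated first base began 99.8% of the miR-181a-5p reads in WT and 99.8% in KO. The shares were 98.6% and 98.3% for miR-181b-5p, 99.2% and 99.1% for miR-181c-5p, and 99.6% and 99.7% for miR-181d-5p. The exceptions differed between members. Reads that began 1 base downstream made up 1.37% and 1.49% of miR-181b-5p but 0.152% and 0.123% of miR-181c-5p, whereas reads that began 1 base upstream made up 0.636% and 0.758% of miR-181c-5p. Among passengers, reads beginning 1 base upstream made up 4.0% and 3.03% of miR-181a-2-3p and 4.64% and 5.0% of miR-181c-3p, against 0.25% and 1.13% of miR-181a-1-3p, where they numbered 1 and 4. The share of each start was compared between KO and WT in 23 cases, and all 23 intervals of the odds held 1.

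Such reads carry another seed. The most frequent forms with an upstream start are shown as read, with T for U and bases 2 to 8 in capitals.
miR-181c-5p, 1 base upstream: gAACATTCaacctgtcggtgagt
miR-181a-2-3p, 1 base upstream: aACCACCGaccgttgactgtac
miR-181c-3p, 1 base upstream: aACCATCGaccgttgagtggac
The first had 35 reads in WT and 32 in KO, the second 40 and 29, and the third 34 and 35. They are few beside the annotated forms, but each exceeds all reads of the 3 scarcest passengers together.

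The 3′ ends were less precise and set the members apart. The guides can be aligned at their 3′ end on a shared uracil, which is the last base of the RefSeq form of miR-181a-5p, miR-181c-5p and miR-181d-5p and the last but one of miR-181b-5p. Reads ending at this uracil made up 48.8% and 48.4% of miR-181a-5p in WT and KO. They made up 30.8% and 32.1% of miR-181b-5p, 41.5% and 41.3% of miR-181c-5p, and 50.5% and 53.5% of miR-181d-5p. Reads ending past it made up only 3.93% (3.78 to 4.08) of miR-181a-5p in WT and 3.94% (3.79 to 4.09) in KO. They reached 22.8% and 22.8% of miR-181b-5p, 25.8% and 24.9% of miR-181d-5p and 43.5% and 44.7% of miR-181c-5p. The odds of ending past the uracil were thus 18.8-fold higher for miR-181c-5p than for miR-181a-5p in WT (17.8 to 19.9) and 19.7-fold in KO (18.7 to 20.8), and 7.20-fold and 7.19-fold higher for miR-181b-5p. All pairs of guides differed in this share in both libraries, by intervals over reads.

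The 2 most frequent forms of miR-181a-5p and miR-181c-5p are again shown as read with the seed in capitals. Only the last of those listed ends past the shared uracil.
miR-181a-5p, 23 nt: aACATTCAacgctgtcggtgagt
miR-181a-5p, 22 nt: aACATTCAacgctgtcggtgag
miR-181c-5p, 22 nt: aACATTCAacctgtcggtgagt
miR-181c-5p, 23 nt: aACATTCAacctgtcggtgagtt
The first had 31985 reads in WT and 31234 in KO, and the second 29245 and 29316. The most frequent form of miR-181a-5p that ends past the uracil, of 24 nt, had 1796 and 1800. For miR-181c-5p the counts were 4595 and 4649 at 22 nt and 4093 and 4227 at 23 nt. Mean lengths differed between members by less than 1 nt, at 22.5 nt for miR-181a-5p in both libraries, 22.3 and 22.4 nt for miR-181c-5p, 22.7 and 22.8 nt for miR-181b-5p and 22.997 and 22.998 nt for miR-181d-5p.

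Between the genotypes the 3′ ends moved by at most 2.98 percentage points. Of 20 shares compared in the 4 guides, 5 had an interval of the KO/WT odds that left out 1. The shares of a guide are not independent, as a rise in 1 lowers others. Reads ending 1 base past the uracil were also counted among those ending 1 or more past it. Reads of miR-181d-5p ending at the shared uracil rose from 50.5% to 53.5% (odds ratio 1.13, 1.02 to 1.25) while those ending 1 base before it fell from 22.1% to 19.6% (0.860, 0.756 to 0.978). Reads ending 1 base before it also fell for miR-181c-5p, from 13.8% to 12.9% (0.921, 0.852 to 0.996). For miR-181a-5p they rose, from 44.5% to 45.3% (1.03, 1.01 to 1.05), and shorter reads fell from 2.78% to 2.41% (0.861, 0.803 to 0.922). These shares do not depend on the scaling, the directions differed between members, and no second library of a genotype shows how far such shares vary by themselves.

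**Figure D4:**
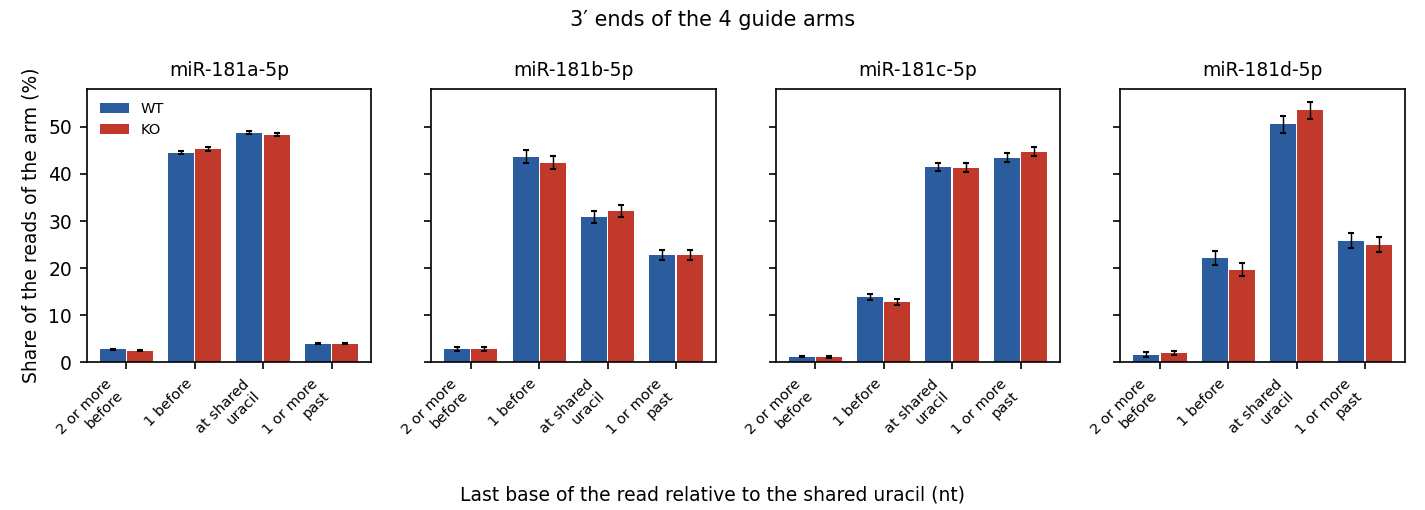
Share of the reads of each guide arm (%) that end 2 or more bases before, 1 base before, at, or 1 or more bases past the uracil shared by the 4 guides, in WT (blue) and KO (red), with 95% Wilson intervals over reads. Reads ending past the uracil make up 3.93% of miR-181a-5p and 43.5% of miR-181c-5p in WT, and the bars of the genotypes nearly match in all 4 guides.

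Some reads matched a miR-181 arm except for their last base, which was either added to the RNA or misread. For each last base, the share was taken of the reads with that base plus the exactly matching reads of at least 20 nt. Reads with such an unmatched last base A made up 6.61% (6.00 to 7.28) of miR-181b-5p in WT and 7.21% (6.56 to 7.92) in KO, and 6.08% and 5.80% of miR-181d-5p. They made up 0.783% and 0.765% of miR-181a-5p, and 0.455% and 0.501% of miR-181c-5p. Such reads ending in U made up 19.8% (17.6 to 22.2) of miR-181c-3p in WT and 16.5% (14.4 to 18.8) in KO. They made up 16.5% (13.4 to 20.1) and 18.98% (15.6 to 22.9) of miR-181a-1-3p, which overlaps with miR-181c-3p, against 8.73% and 8.60% of miR-181a-2-3p. The most frequent such forms of miR-181b-5p and miR-181c-3p are shown with the additional base in capitals.
miR-181b-5p, ending in A: aacattcattgctgtcggtggA
miR-181c-3p, ending in U: accatcgaccgttgagtggacT
The first had 164 reads in WT and 176 in KO, more than the 64 and 72 reads of the same sequence without its last base, and the second had 150 and 129 reads against 109 and 105. Of the 24 KO/WT comparisons of such ends that gave an interval, over the 7 arms with at least 100 reads, 2 left out 1: U on miR-181c-3p fell (odds ratio 0.797, 0.639 to 0.995), and C on miR-181a-5p rose from 0.0566% to 0.0961% (1.70, 1.11 to 2.63).

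Beside the other hairpins, the family stood in the middle of the Mir-named distribution. By the mean RPM of both libraries, its neighbours were Mir127, an imprinted miRNA, above it and Mir143 and Mir199a-2, both mesenchymal, below it. Mir127 had 44570.5 RPM in WT and 46278.5 in KO (KO/WT ratio 1.04, 1.03 to 1.05). Mir143 had 35493.5 and 28793.8 RPM (0.811, 0.803 to 0.819), above the family in WT and below it in KO. Mir199a-2 had 24597.3 and 32538.9 RPM (1.32, 1.31 to 1.34), below Mir143 in WT and above it in KO. The ratios nearest to that of the family among hairpins with at least 1000 reads were those of Mir192 (0.974), Mir30d (0.976) and Mir103-1 (0.978), a likeness that rests on 1 pair of libraries. On the log2 scale the ratio of the family, -0.04, lay between those of Mir143 (-0.30) and Mir199a-2 (0.40), an order that the scaling does not change.

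**Figure D5:**
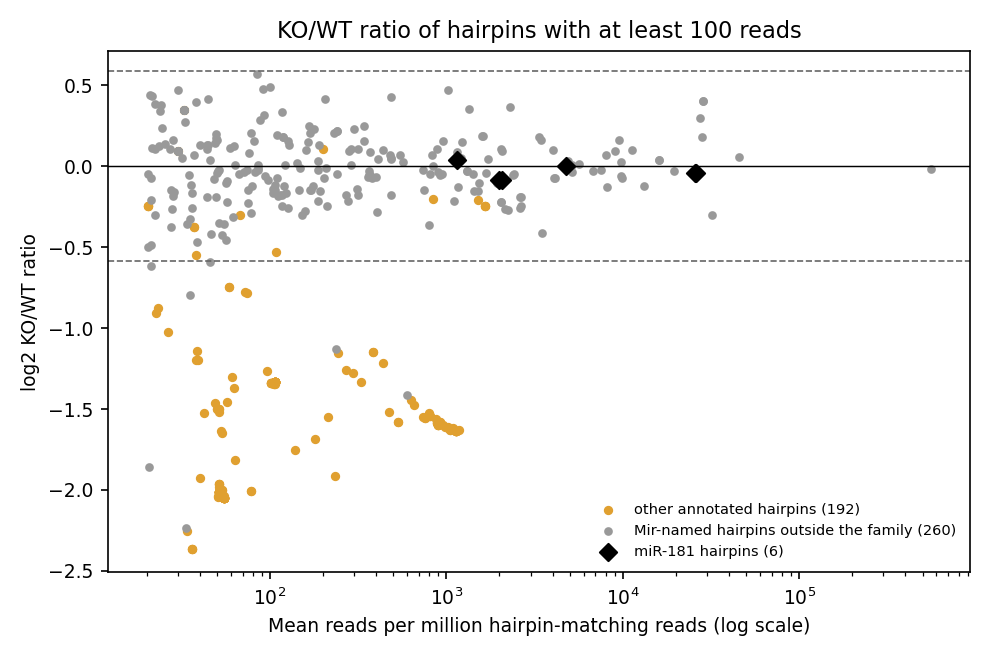
log2 KO/WT ratio against mean RPM (log axis) for the 458 hairpins with at least 100 reads: the 6 miR-181 hairpins (black diamonds, those of identical guides on each other), 260 other Mir-named hairpins (grey) and 192 hairpins of other names (orange), with dashed lines at 1.5-fold. On this scale the miR-181 hairpins lie between ratios of 0.942 and 1.03, and scaling to all reads would raise all points by 0.22.

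Marker miRNAs of the cell types of the testis did not all have ratios near 1 on the hairpin scale, which the values here use unless another is named. Those of gonadal supporting cells, Mir202 and Mir140, were present at 2804.5 RPM in WT and 2982 in KO (ratio 1.06, 1.03 to 1.10). The interval lay above 1 for Mir202 (1.07, 1.03 to 1.11) and held 1 for Mir140 (1.05, 0.988 to 1.12). On the scale of all reads both lay above 1 (1.24 and 1.22). Germ cells share the hairpins from Mir290a to Mir295 with pluripotent cells. The list held 6 of them, without Mir291b (19 and 20 reads, ratio 1.04, 0.525 to 2.05). The interval lay above 1 for 3 of the 5 listed ones with at least 100 reads (16.2% of Mir-named hairpins). Summed, the 6 had 794.7 RPM in WT and 1031 in KO, a ratio of 1.297 (1.22 to 1.38). On the scale of all reads this ratio was 1.51 (1.42 to 1.60). The 6 blood cell hairpins summed to 770.9 and 627.8, a ratio of 0.814 (0.762 to 0.870), with the interval below 1 for 3 of the 4 with at least 100 reads (21.4% of Mir-named hairpins). These 3 were Mir142 (0.822), Mir451a (0.844) and Mir144 (0.575, on 113 reads in WT and 66 in KO). The intervals of Mir223 (0.796), Mir150 (0.796) and Mir155 (1.35, on 8 and 11 reads) held 1. On the scale of all reads the blood cell ratio was 0.948 (0.887 to 1.01), with an interval that held 1. Endothelial Mir126a had a ratio of 1.003 (0.979 to 1.03), and the 6 mesenchymal hairpins ranged from 0.811 to 1.32. No marker hairpin was at 0 in either library. The part of these cell types in the miR-181 levels was not tested.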

How the data were processed

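Small RNA of 1 WT and 1 Hsp90α KO library was sequenced on the Illumina MiSeq after TruSeq small RNA preparation. After clipping the adaptor, the authors listed every distinct sequence (11 to 48 nt) with its raw counts of reads, which were deposited neither mapped nor normalized. Per the labels, mm9 was the genome build of the submitters' processing, but the deposited counts carry no coordinates. Coordinates here are those of GRCm38, from GENCODE M21 and RefSeq (GRCm38.p6), and none was converted.

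Exact matches of reads no shorter than 16 nt were sought in the 2202 miRNA hairpins of GENCODE M21. A read went to the arm it overlapped by at least 10 nt. All 10 arms of the 6 hairpins were found by name in RefSeq. Reads per 1000000 hairpin reads were compared as KO/WT ratios with exact conditional binomial (Clopper-Pearson) 95% intervals, quotients and odds with exact conditional intervals, shares with Wilson intervals and levels with Poisson intervals. A ratio was called when its interval lay on one side of 1, and by size at 1.5-fold with at least 100 reads over both libraries. Shares of untemplated ends required 20 templated bases, whereas the alternative that let reads with such ends into the counts required 16. Polymerase chain reaction copies were not marked by molecular identifiers, so intervals cover counting error only. How readily each sequence enters a library was not measured, which bears on levels compared between arms.

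The members, marker lists and named miRNAs (all arms, neighbours in rank and ratio, Mir10b) were chosen with earlier results of these data known. Scripts used Python 3.11.15, numpy 2.4.6, scipy 1.17.1 and matplotlib 3.10.9 and were tested on simulated data. Alternatives covered the normalizing total, read length, singletons, untemplated ends and distinct sequences.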

Additional observations from a re-analysis of the deposited data

How the results depend on the processing

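The direction of the family and of miR-181a-5p and miR-181b-5p depended on the normalizing total, whereas the ratio of miR-181d-5p lay above 1 under every total tried. Its interval left out 1 only with all reads of the library or the median ratio of all hairpins as the total. Normalized to all reads of the library, the KO/WT ratio was 1.13 for the family, 1.13 for miR-181a-5p, 1.10 for miR-181b-5p and 1.14 for miR-181c-3p, all reversed, and with the median ratio of all hairpins it was 1.13, 1.13, 1.09 and 1.13. With distinct sequences counted once each, it was 1.21 (0.924 to 1.59) for the family, 1.42 for miR-181a-5p and 1.07 for miR-181b-5p, with intervals that held 1. Without Mir10b in the total, the intervals of miR-181a-1-3p (0.859) and miR-181a-2-3p (0.912) lay below 1. That of miR-181a-2-3p also did so with reads of 20 to 24 nt only (0.922) and with sequences of at least 2 reads (0.923). Normalization to reads of 20 to 23 nt, and to the median of the Mir-named hairpins (chosen after seeing the data), shifted all ratios by 0.01 on the log2 scale. With these totals, and without Mir10b in the total, the intervals of the family, miR-181a-5p and miR-181b-5p stayed below 1. The count of arms past 1.5-fold was 1 in place of 0 with a minimum of 10 reads, through miR-181d-3p (1.58, 0.455 to 6.12), and 0 under the other settings. With distinct sequences no arm reached 100, so this count has no value. Of 126 values of the family under an alternative, 94 kept direction and call, and 12 changed direction with an interval that held 1 both times. A further 11 changed direction where the interval left out 1 in at least 1 of the settings compared. Another 8 kept direction but gained an interval that left out 1, and 1 count of arms moved. Among the 12 were the balances with distinct sequences: 0.848 for miR-181a-2-3p to miR-181a-1-3p, 0.5 for chromosome 8 to chromosome 1 and to chromosome 2, and 0.887 for the arms of miR-181a. The quotients between paralogs and between arms kept intervals that held 1 under all 4 settings tried for them. The scale of all reads for marker lists was added after seeing the data. No paired analysis was possible because each genotype had 1 library and its replicate number came from the order of the samples, and leaving out a library was not possible for the same reason. Depth limited the 3 passengers under 100 reads, and the cause of the reversals beyond the change of the total was not tested.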

Other observations

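Guides ending past the shared uracil carried runs of U, and the number of reads with 3 U beside those with 2 U differed between members. Per 100 reads ending in UU there were 42.1 reads ending in UUU for miR-181a-5p in WT and 39.7 in KO. The values were 18.5 and 19.2 for miR-181b-5p, 17.8 and 19.0 for miR-181c-5p, and 11.5 and 11.3 for miR-181d-5p. For miR-181d-5p no hairpin encodes the last U, and for miR-181b-5p Mir181b-2 does but Mir181b-1 does not. The value of miR-181b-5p thus mixes both kinds of hairpin. For miR-181a-5p and miR-181c-5p the last U is encoded, so their values do not measure added U and are not like that of miR-181d-5p. miR-181a-5p had few reads past the uracil, 3.93% in WT, but the most reads ending in UUU beside those ending in UU. The order a, b, c, d was the same in both libraries, with miR-181b-5p and miR-181c-5p close together.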
